A study of Mus musculus with 30 samples.

Results

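The regions described here are peaks of trimethylated histone H3 lysine 27 (H3K27me3) that were listed in RAG1-/- pro-B cells and not in EBF-/- pre-pro-B cells. A member is a peak of the RAG1-/- H3K27me3 list that shares no base with a peak of the EBF-/- H3K27me3 list or of the mock immunoprecipitation list. Members were thus chosen by the peak calls of the 2 H3K27me3 libraries and the mock library, and those calls are given below as a description. The rule kept 1830 of the 2130 RAG1-/- peaks (85.9%), and each region is 1000 bp wide. RAG1-/- pro-B cells cannot rearrange their immunoglobulin genes. They were taken from bone marrow as B220+ cells and grown for 10 d in IL-7 and SCF. EBF-/- cells lack early B cell factor, E2A-/- cells lack the E-box factor E2A, and both are pre-pro-B cells that were grown on S17 stroma with IL-7, SCF and FLT3 ligand. All 3 genotypes are C57BL/6. The RNA samples and the EBF-/- and RAG1-/- libraries were untreated, and the mock immunoprecipitation came from wild-type lymphoid cells, also C57BL/6. The E2A-/- chromatin libraries, and those of A12, an E2A-/- double-positive T cell line, were from cells that carried a retroviral E2A fused to the oestrogen receptor domain (E47-ER, or bHLH-ER without the activation domains). Of these, the E2A peak lists with E47-ER are used here, after 1 uM tamoxifen for 1 or 6 h. Because RAG1-/- cells were grown another way, genotype and culture cannot be told apart. Each chromatin condition has 1 library, so differences between peak lists have no replicate check. RNA was measured on arrays in 2 samples of each genotype, and no source used here says whether these were separate cultures, so the p-values measure only the spread between these samples, which may be technical.

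H3K27me3 is deposited by Polycomb repressive complex 2 (PRC2), is bound by chromobox proteins of PRC1, and is typical of repressed genes. Methylation of histone H3 lysine 4 and acetylation of lysines 9 and 14 (H3K9/14ac) mark active or poised promoters and enhancers. In early lymphoid cells E2A and EBF1 act in sequence to start the B cell programme, and cells without either factor stop before B lineage commitment and keep other lineage potentials. The regions therefore show where a repressive mark was listed on the pro-B side of that step, and the marks of EBF-/- cells show what those places carried on the other side.

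The 5 stretches below are the 250 bases upstream of the annotated start of genes that recur in the results. The array probe of each gene was the nearest to a pro-B-only region. They come from RefSeq on the GRCm38.p6 build and are not the H3K27me3 regions themselves, whose positions are on mm8. The dinucleotide CG is in capitals, and its number differs widely between them. Esm1, whose signal was listed far lower in RAG1-/- cells, has 3 CG. Ier3 (8 CG), Agpat2 (16 CG) and Frat2 (29 CG) lie nearest to regions that carried H3K4me3 and H3K9/14ac in EBF-/- cells. Bok, with 12 CG, lies nearest to a region with H3K9/14ac in both genotypes and was higher in RAG1-/- cells.
Esm1, chr13:113209409-113209658, plus strand: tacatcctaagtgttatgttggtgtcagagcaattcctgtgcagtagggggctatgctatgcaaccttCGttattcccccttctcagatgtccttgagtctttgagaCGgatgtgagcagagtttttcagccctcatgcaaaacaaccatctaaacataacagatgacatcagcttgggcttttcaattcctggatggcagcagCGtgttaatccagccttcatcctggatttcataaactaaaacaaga
Ier3, chr17:35821463-35821712, plus strand: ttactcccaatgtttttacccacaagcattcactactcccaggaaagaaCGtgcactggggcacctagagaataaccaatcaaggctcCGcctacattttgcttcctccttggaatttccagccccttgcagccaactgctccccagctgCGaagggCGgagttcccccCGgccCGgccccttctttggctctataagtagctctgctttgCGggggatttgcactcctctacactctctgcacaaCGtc
Agpat2, chr2:26604418-26604667, minus strand: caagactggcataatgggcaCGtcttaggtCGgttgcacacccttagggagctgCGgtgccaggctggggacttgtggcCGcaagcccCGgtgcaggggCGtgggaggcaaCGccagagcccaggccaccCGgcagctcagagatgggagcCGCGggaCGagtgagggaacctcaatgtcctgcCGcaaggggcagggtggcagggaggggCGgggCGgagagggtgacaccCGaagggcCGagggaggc
Frat2, chr19:41848133-41848382, minus strand: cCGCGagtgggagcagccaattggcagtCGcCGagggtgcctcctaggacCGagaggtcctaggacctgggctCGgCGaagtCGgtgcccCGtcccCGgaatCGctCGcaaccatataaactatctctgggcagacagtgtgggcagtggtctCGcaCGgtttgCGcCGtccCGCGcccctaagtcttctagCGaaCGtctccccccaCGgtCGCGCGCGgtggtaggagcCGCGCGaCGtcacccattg
Bok, chr1:93685325-93685574, plus strand: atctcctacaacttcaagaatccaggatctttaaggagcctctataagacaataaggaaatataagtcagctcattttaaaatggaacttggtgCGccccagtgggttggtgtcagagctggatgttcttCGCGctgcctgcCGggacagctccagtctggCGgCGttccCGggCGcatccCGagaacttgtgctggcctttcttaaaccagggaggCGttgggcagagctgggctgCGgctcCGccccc
Over all RefSeq promoters of 300 bases (250 before and 50 after the start) of genes on the array, 49.1% were CpG-rich, here meaning at least 50% G and C and an observed over expected CG ratio of at least 0.6. Promoters of the genes nearest to pro-B-only regions were CpG-rich in 49.5% of 1178 cases (923 of the 1255 genes matched a promoter by symbol), close to the array as a whole. The share was 69.5% of 95 promoters where the region carried H3K4me3 in EBF-/- cells, and 43.5% of 552 promoters where it carried no active mark in either genotype. E-boxes, searched as CAGCTG and CAGGTG on both strands (CAGCTG is its own reverse complement), were present in 17.7% and 20.8% of the members' promoters and in 16.1% and 19.5% of those of all array genes. The motif CAGCTG has 1 match in the Ier3 stretch above, and neither motif is in the windows of the other 4 genes.

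The pro-B-only regions were spread over the genome. Chromosome 4 held 135 of them, chromosome 11 held 134, chromosome X held 48 and chromosome Y none. Their deposited peak score, a whole number that neither the labels nor the files define, ran from 16 to 104 with a median of 31. The 282 RAG1-/- peaks that did overlap an EBF-/- peak and no mock peak, called shared regions from here on, had a median score of 42 and reached 208. The 1019 peaks listed only in EBF-/- cells had a median score of 16 in their own list, and scores of separate libraries cannot be compared. The 286 RAG1-/- peaks with an EBF-/- overlap, mock overlaps included, made up 13.4% of the RAG1-/- list, and the same number of EBF-/- peaks made up 21.8% of the EBF-/- list. The EBF-/- list is the shorter, with 1311 peaks, and read depths are not in the files, so a region absent from it may also have been under its threshold. Most members were far from any EBF-/- H3K27me3 peak: the median gap was 437 kb, and 24 members had a peak within 1 kb. At the edge of the rule, the nearest member lay 9 bp from an EBF-/- peak and the least overlapping excluded peak shared 11 bp.

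A large minority of the pro-B-only regions carried an active mark in EBF-/- cells, and H3K4me2 was by far the most frequent. An EBF-/- H3K4me2 peak overlapped 638 of the 1830 regions (34.9%), H3K9/14ac 278 (15.2%), H3K4me3 130 (7.1%) and H3K4me1 85 (4.64%). At least 1 of these marks was at 674 regions (36.8%), and 1156 (63.2%) had none. H3K4me2 stood alone at 344 regions, whereas H3K4me3 seldom did: 117 of its 130 regions (90%) also had H3K9/14ac, and over all 9064 EBF-/- H3K4me3 peaks that share was 95.8%. The combination of H3K4me2, H3K4me3 and H3K9/14ac marked 91 regions. At shared regions the EBF-/- shares were 45% for H3K4me2, 13.1% for H3K9/14ac, 4.26% for H3K4me3 and 10.3% for H3K4me1. The pro-B-only regions thus had the higher listed shares of H3K4me3 and H3K9/14ac and the lower ones of H3K4me2 and H3K4me1, with 1 library behind each value and no test.

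**Figure D1:**
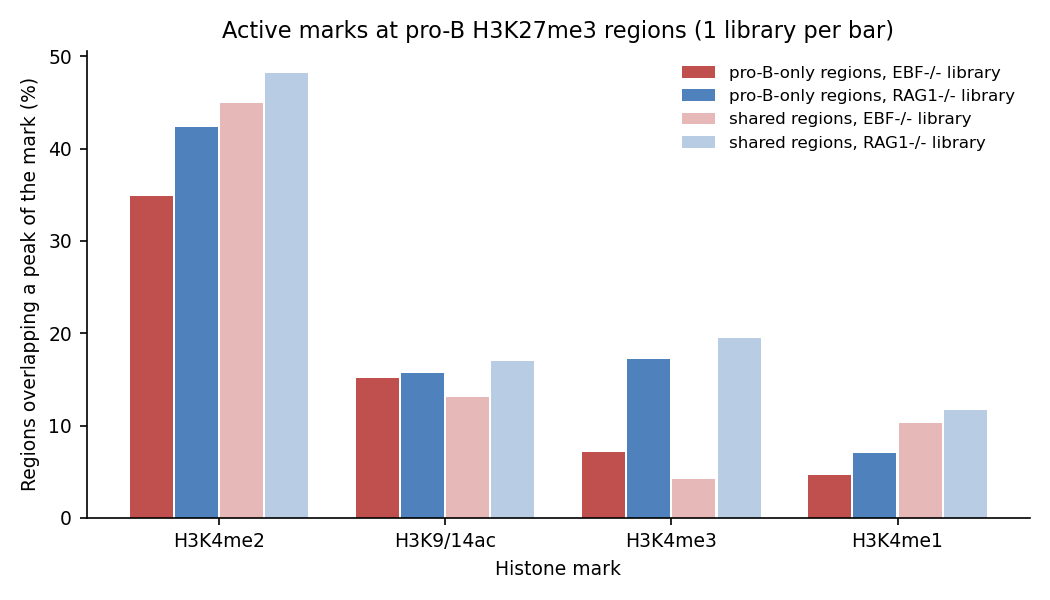
Percent of pro-B H3K27me3 regions that overlap a peak of 4 active histone marks, for pro-B-only regions (n = 1830, dark bars) and shared regions (n = 282, light bars), in the EBF-/- library (red) and the RAG1-/- library (blue). Each bar is 1 library, so there is no error bar. H3K4me2 is the tallest bar group, and H3K4me3 at pro-B-only regions stands at 7.1% in EBF-/- and 17.2% in RAG1-/-.

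The H3K9/14ac and H3K4me3 peaks at these regions had lower median scores than their EBF-/- lists as a whole. The median EBF-/- H3K9/14ac score was 37 at the members against 78 over all peaks of that list, and the median EBF-/- H3K4me3 score was 20 against 32. For H3K4me2 the medians were 42 and 40 and for H3K4me1 20 and 22. Single H3K9/14ac peaks at members reached a score of 266. When only the upper part of each list by its own median score was used, 19% of the regions still overlapped H3K4me2, but 2.57% overlapped H3K9/14ac and 1.2% overlapped H3K4me3.

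The higher the deposited H3K27me3 score in RAG1-/- cells, the more often the same place carried H3K4me2 in EBF-/- cells. Split by score into 4 groups of about equal size, 14.4% of the lowest group, 28.7% of the second, 42% of the third and 54.4% of the highest had EBF-/- H3K4me2. H3K9/14ac went from 6.33% to 21.2% and H3K4me1 from 1.31% to 10%. H3K4me3 was at 2.84%, 7.66%, 9.63% and 8.3%, so it did not keep rising into the highest group. In RAG1-/- cells themselves H3K4me2 went from 15.7% in the lowest group to 66.6% in the highest. H3K4me3 there went from 7.86% to 22.9%, H3K9/14ac from 6.99% to 21.4% and H3K4me1 from 3.49% to 7.64%. What the score measures is not known, so the link with it was not explained or tested.

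**Figure D2:**
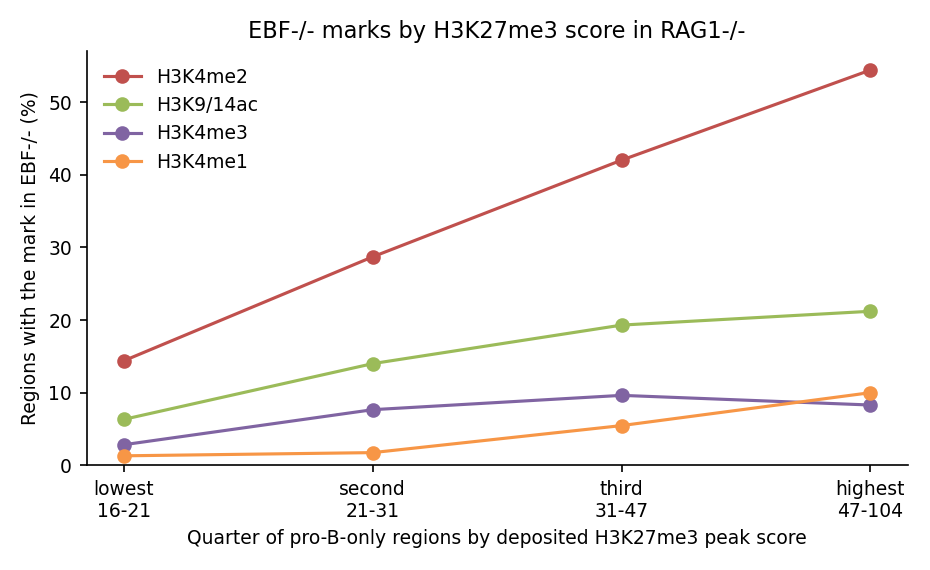
Percent of pro-B-only regions with each active mark in EBF-/- cells (vertical axis) in 4 groups of regions ordered by their deposited H3K27me3 peak score in RAG1-/- cells (horizontal axis, score range under each group, 457 or 458 regions a group, 1 library per line). The H3K4me2 line runs from 14.4% to 54.4%, and the H3K4me3 line is highest in the third group.

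From EBF-/- to RAG1-/- cells the listed active marks at these regions did not simply disappear. H3K4me3 was listed at 98 regions in both genotypes, at 32 in EBF-/- alone and at 216 in RAG1-/- alone. H3K9/14ac was at 174 in both, at 104 in EBF-/- alone and at 113 in RAG1-/- alone. H3K4me2 was at 539 in both, at 99 in EBF-/- alone and at 236 in RAG1-/- alone, and H3K4me1 at 21, 64 and 107. Of the 674 regions with any active mark in EBF-/- cells, 579 still had at least 1 in RAG1-/- cells. Of the members with an EBF-/- H3K4me3 peak, 75.4% also overlapped a RAG1-/- H3K4me3 peak. Over the whole list, 96.2% of the 9064 EBF-/- H3K4me3 peaks themselves overlapped one. For H3K9/14ac these shares were 62.6% and 74.1%. H3K4me2 went the other way, with 84.5% at members and 62.4% over the whole list. The shares at members count regions and those over whole lists count peaks, so they are unlike measures. The RAG1-/- H3K4me3 list is longer than the EBF-/- one (13205 peaks against 9064), which bears on every count of H3K4me3 in RAG1-/- alone.

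E2A peaks were rare at these regions. An E2A peak in EBF-/- cells overlapped 10 of the 1830 regions (0.546%) out of 4531 E2A peaks in that list, and an E2A peak in RAG1-/- cells overlapped 8, none of them among the 10. Of the shared regions 0 of 282 had an EBF-/- E2A peak, which allows a share of up to 1.06% for counting error alone, so no difference was detectable. EBF1 peaks in RAG1-/- cells overlapped 1 region, FOXO1 peaks none of 1575, and peaks of the insulator protein CTCF 74 (4.04%). In E2A-/- cells given a tamoxifen-activated E2A protein (E47-ER), E2A peaks overlapped 77 regions after 1 h and 38 after 6 h, and 30 regions had both. In A12 cells with E47-ER, E2A peaks overlapped 41 regions after 6 h. Of the 10 regions with E2A in EBF-/- cells, 6 had E2A in at least 1 of these 3 E47-ER libraries (5 in E2A-/- pre-pro-B cells) and 6 had an active mark in EBF-/- cells. None of the 10 E2A peaks scored above 14, the median of the whole list.

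Of these 10 regions, 7 had a gene within reach, and 6 of those genes passed the intensity filter. Among the 6, 2 were lower and none higher in RAG1-/- than in EBF-/- cells. Over all genes tested 22.9% were lower and 21% higher, and 6 genes are too few to set against these shares. Ier3, an early-response gene induced by growth factors and stress, lay nearest to the region chr17:35429234-35430233 (mm8), 403 bp from its probe. That region had H3K4me3, H3K9/14ac and E2A in EBF-/- cells and H3K4me1, H3K4me2 and H3K27me3 in RAG1-/- cells. Ier3 signal on the log2 scale was 11.54 and 11.59 in E2A-/- samples, 10.60 and 10.36 in EBF-/- samples and 5.28 and 5.55 in RAG1-/- samples. The RAG1-/- samples were the low ones and no groups overlapped. The signal was not well above background in RAG1-/- replicate 1, so the size of this difference rests partly on a signal near background. Ier3 was lower in RAG1-/- than in EBF-/- cells by a log2 difference of -5.07 (SE 0.15, limma adjusted p = 0.000395). Foxred2, a reductase of the endoplasmic reticulum, lay nearest to another E2A region (chr15:77782891-77783890) that kept H3K4me2, H3K4me3 and H3K9/14ac in both genotypes. Its log2 signal was 11.10 and 11.02 in EBF-/- and 9.45 and 9.72 in RAG1-/- samples, a difference of -1.48 (limma adjusted p = 0.0023). Klf9, a zinc finger factor, and Bmf, a pro-apoptotic BCL2 family member, did not pass the test, with log2 differences of -0.48 and 0.22 (limma adjusted p = 0.146 and 0.103), and Abca17 was not above the filter. Sp3os and Aasdhppt, the remaining genes, named after their values were seen, lay at regions without an active mark in EBF-/- cells, and their differences were -0.03 and 0.14 (limma adjusted p = 0.879 and 0.489). Klf9 passed without RAG1-/- replicate 2 (log2 difference -0.80, limma adjusted p = 0.0137).

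Each region was paired with the named gene whose array probe lay nearest on mm8, up to 50 kb from the region's edge. Gene start sites on mm8 were not used here, so the distances are to probes, which mostly sit towards the 3′ end of a gene. A gene was found for 1303 of the 1830 regions (71.2%), giving 1255 distinct genes at a median distance of 12.0 kb. Of these, 689 (54.9%) passed the intensity filter and were tested, against 60.5% of all positioned array genes and 44.6% of the genes nearest to shared regions. The other 566 genes did not pass the filter and are in no count of genes called higher or lower with it. Signals well above background were found for 45.6% and 53.7% of the members' genes in EBF-/- samples and for 54.1% and 56.5% in RAG1-/- samples, each below the 51.9% to 61.2% of all array genes in the same samples.

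Genes nearest to pro-B-only regions were more often lower than higher in RAG1-/- cells. Of the 689 tested genes, 205 (29.8%) were lower and 119 (17.3%) higher in RAG1-/- than in EBF-/- cells (limma, Benjamini-Hochberg adjusted p under 0.05). Over all 12584 genes tested, 43.9% were called in either direction, 22.9% lower and 21% higher. The median log2 difference was -0.05 for the members' genes and 0.04 for all genes. Genes nearest to the 282 shared regions had 18 lower (20.9%) and 23 higher (26.7%) of 86, and genes nearest to the regions listed only in EBF-/- cells had 19.2% lower and 23.9% higher of 364; these differences between region sets were not tested. The calls rest on both EBF-/- samples: without EBF-/- replicate 1 the members' shares were 15.8% lower and 6.24% higher (all genes 9.82% and 8.36%), and without EBF-/- replicate 2 they were 17.1% and 7.11% (all genes 10.7% and 9.01%).

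Against E2A-/- cells, the other pre-pro-B genotype, the same genes had a like split. In RAG1-/- against E2A-/- cells 214 of 689 (31.1%) were lower and 118 (17.1%) higher, where all genes had 45.9% called, 23.1% lower and 22.9% higher. Without E2A-/- replicate 2 these were 18.6% and 11.2%, and all genes 13.1% and 13.4%. Both comparisons use the same RAG1-/- samples, so the second is no independent check of the first. Between the pre-pro-B genotypes, EBF-/- against E2A-/-, 86 genes (12.5%) were lower and 93 (13.5%) higher, near the 11.3% and 12.8% of all genes (24.1% called in all). Those EBF-/- against E2A-/- counts moved widely when samples were left out, from 1.45% to 20.9% lower and from 2.18% to 21.8% higher, the highest values without either RAG1-/- sample.

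Lower genes made up larger shares where the region had carried H3K4me3 or H3K9/14ac in EBF-/- cells than over all members. Near regions with EBF-/- H3K4me3, 41 of 85 tested genes (48.2%) were lower in RAG1-/- than in EBF-/- cells and 7 (8.24%) higher, with a median log2 difference of -0.46. Genes nearest to all 9064 EBF-/- H3K4me3 peaks, found the same way, had 24.6% lower and 20.1% higher, and a median of -0.02. The lower share was 30 of 64 (46.9%) where H3K4me3 was also listed in RAG1-/- cells and 11 of 21 (52.4%) where it was not, a difference that was not tested. For all EBF-/- H3K4me3 peaks that overlap no RAG1-/- H3K4me3 peak, a set of peaks and not of regions, 38.2% of 225 nearest genes were lower. Near regions with EBF-/- H3K9/14ac, 68 of 162 genes (42%) were lower and 23 (14.2%) higher, against 25.4% and 20.4% for all EBF-/- H3K9/14ac peaks. Without EBF-/- replicate 1 or replicate 2 the lower share near H3K4me3 regions was 31.8% in both cases and the higher share 1.18%, and without E2A-/- replicate 2 the higher share was 4.71%. The same omissions of an EBF-/- sample gave 25.3% and 25.9% lower and 6.79% and 8.64% higher near H3K9/14ac regions. A peak of these marks is found at genes that are active in EBF-/- cells, so the sets are not a sample of all genes, and the differences from all peaks of the mark were not tested.

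Regions acetylated in EBF-/- cells alone had the largest share of lower genes among the acetylated sets. Of 57 tested genes nearest to these 104 regions, 30 (52.6%) were lower and 5 (8.77%) higher in RAG1-/- cells, with a median of -0.59. For all EBF-/- H3K9/14ac peaks that overlap no RAG1-/- H3K9/14ac peak, 34% of 1813 nearest genes were lower. That set was defined by peaks and the members' set by regions. Where acetylation was listed in both genotypes 38 of 105 (36.2%) were lower, and where it was listed in RAG1-/- alone 10 of 51 (19.6%) were lower and 12 (23.5%) higher. Regions with no active mark in either genotype, 909 of the members, had 78 of 296 genes lower (26.4%) and 48 higher (16.2%). H3K4me2 without any other active mark in EBF-/- cells went with 28 lower (23.7%) and 29 higher (24.6%) of 118. Over all genes tested 22.9% were lower and 21% higher, so this set was near those shares. Other splits went both ways. H3K4me2 listed in RAG1-/- alone went with 34 of 97 lower (35.1%) and 10 higher (10.3%). H3K4me2 listed in EBF-/- alone went with 19 of 44 lower (43.2%) and 9 higher (20.5%). EBF-/- H3K4me1 went with 7 of 38 lower (18.4%) and 9 higher (23.7%). Any active mark in RAG1-/- and none in EBF-/- went with 30 of 102 lower (29.4%) and 15 higher (14.7%). These sets overlap, 22 such splits were made, and they were chosen with the marks and expression values known. Without EBF-/- replicate 1 or 2 the lower share at regions acetylated in EBF-/- alone was 38.6% or 36.8%, and the higher share 3.51% or 5.26%.

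**Figure D3:**
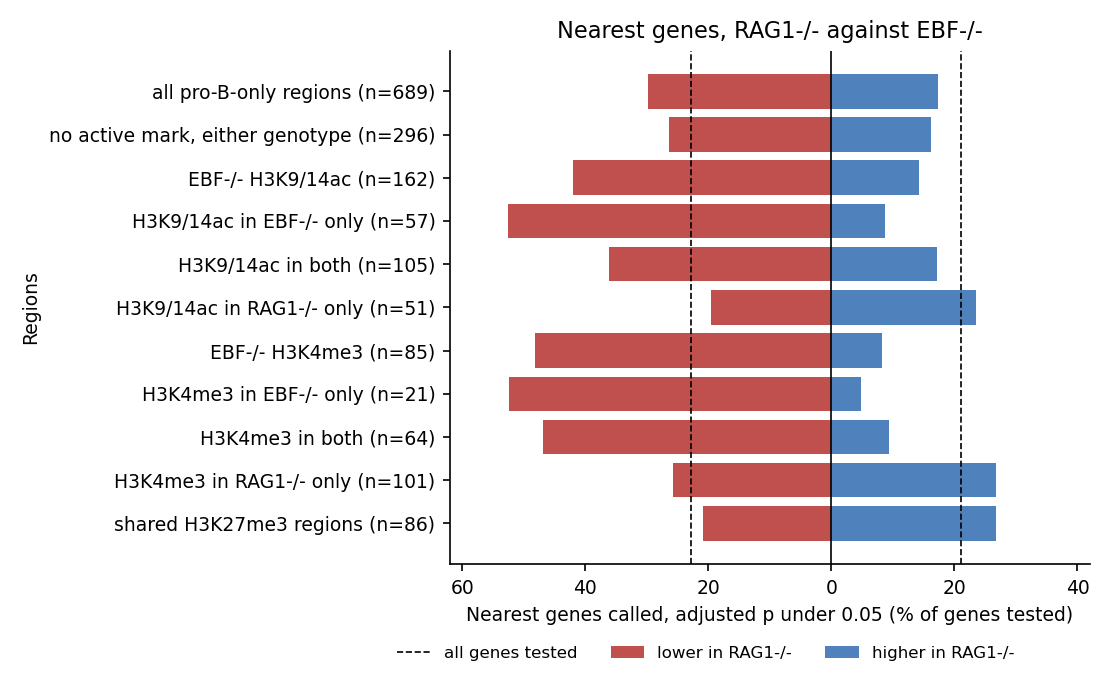
Percent of tested nearest genes called lower (red, to the left) or higher (blue, to the right) in RAG1-/- against EBF-/- cells by limma, for sets of pro-B-only regions by the marks they carry and for shared regions, with the number of tested genes in brackets. Dashed lines mark the shares over all 12584 genes tested, 22.9% lower and 21% higher. The red bars of the sets with EBF-/- H3K4me3 or H3K9/14ac reach past the dashed line, up to 52.6%.

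Falls and rises were ranked only among called genes with both RAG1-/- samples beyond both EBF-/- samples. That separation was thus a condition and no result. Among genes nearest to a member, the 10 largest fitted falls from EBF-/- to RAG1-/- cells were at Esm1, Myo18b, Cd7, Ggt5, Slc27a2, Ppfia4, Adam11, Ier3, Fut7 and Cst7. Esm1, Ggt5, Slc27a2 and Ppfia4 were not well above background in RAG1-/- samples, so their place in this order was not measured. Of these, Esm1 and Slc27a2 passed the intensity filter through EBF-/- samples alone. Esm1, which encodes the secreted proteoglycan endocan, lay nearest to chr13:114330298-114331297, a region with H3K4me2 and H3K9/14ac in EBF-/- cells and no active mark in RAG1-/- cells. Its log2 signal was 12.36 and 12.07 in EBF-/-, 5.78 and 6.02 in E2A-/- and 3.68 and 3.76 in RAG1-/- samples. EBF-/- samples were alone in being high, and Esm1 was not well above background in either RAG1-/- sample, so EBF-/- cells were at least 180-fold higher (limma adjusted p = 0.000365). This bound sets the EBF-/- mean against, for each RAG1-/- sample, the higher of the gene's own signal and the lowest signal called well above background. Slc27a2, a very-long-chain acyl-CoA synthetase, lay 10975 bp from another region acetylated in EBF-/- alone. That region had H3K4me2 in both genotypes, and H3K4me1 and H3K4me3 in RAG1-/- cells alone. Slc27a2 was at least 19.5-fold higher in EBF-/- cells, with log2 signals of 9.05 and 8.97 there. Ggt5, which cleaves leukotriene C4, and Ppfia4, a liprin scaffold protein, were at least 49.4-fold and 22.6-fold higher in EBF-/- than in RAG1-/- cells, at regions with no active mark in either genotype.

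The next of these genes were nearest to regions without H3K9/14ac in EBF-/- cells, apart from Fut7. Cd7, a T and natural killer cell surface protein, had log2 signals of 11.97 and 12.33 in EBF-/-, 7.38 and 7.99 in E2A-/- and 5.14 and 5.81 in RAG1-/- samples. The 3 genotypes did not overlap, and Cd7 differed by -6.69 between RAG1-/- and EBF-/- cells (SE 0.35, limma adjusted p = 0.000763). Its region, chr11:120821823-120822822, had a low H3K27me3 score of 18, no active mark in either genotype, and lay 30022 bp from the probe. Cst7, a protease inhibitor of immune cells, differed by -4.86 and Fut7, a fucosyltransferase that makes selectin ligands, by -4.91 (limma adjusted p = 0.00177 and 0.00362), and both had more spread between the RAG1-/- samples (8.44 and 9.91 for Cst7, 7.23 and 9.10 for Fut7). Myo18b, an unconventional myosin, and Adam11, a metalloprotease-like membrane protein, fell by 6.81 and 5.33 on the log2 scale in RAG1-/- against EBF-/- cells. The Cst7 and Myo18b probes lay 40160 and 32467 bp from their regions, and the Fut7 and Adam11 probes 2906 and 3911 bp. Natural killer, T, myeloid and mast cell marker lists also had lower medians in RAG1-/- samples. All 4 natural killer markers were above background in both EBF-/- samples and 2 in both RAG1-/- samples. Their median log2 level over genes was 10.92 and 6.23. The median of the 5 T cell markers was 10.36 in EBF-/- and 6.71 in RAG1-/- samples, and that of the 5 myeloid markers 12.26 and 9.38. Of the T cell markers, 5 were above background in both EBF-/- and 4 in both RAG1-/- samples. The myeloid list went both ways, with 4 markers above background in both EBF-/- and 5 in both RAG1-/- samples. Its lowest marker mean was 6.45 in EBF-/- and 7.71 in RAG1-/- samples. The 1 mast cell and basophil marker measured was at 10.54 and 7.74. Erythroid markers (2 measured, median 5.38 and 6.06) and the 1 stromal marker measured (6.84 and 7.31) went the other way. None of these was above background in both EBF-/- samples. All 8 B lineage markers were above background in RAG1-/- samples (median 14.98) and 4 in both EBF-/- samples (median 6.06). In such bulk samples fewer cells of a type and less RNA per cell cannot be told apart, and the part of cell makeup in these falls was not tested.

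Other genes nearest to regions that carried both H3K4me3 and H3K9/14ac in EBF-/- cells fell by more than the spread between replicates. These genes were named after their values were seen, from the regions where H3K9/14ac or H3K4me3 was listed in EBF-/- alone. Tsc22d1, a leucine zipper gene induced by transforming growth factor beta, lay 991 bp from chr14:75239634-75240633, which had H3K4me2, H3K4me3 and H3K9/14ac in EBF-/- cells and none of them in RAG1-/- cells. Its log2 signal was 13.63 and 13.78 in EBF-/-, 13.14 and 12.89 in E2A-/- and 8.99 and 9.28 in RAG1-/- samples, a difference of -4.56 from EBF-/- to RAG1-/- (SE 0.14, limma adjusted p = 0.00041). Both pre-pro-B genotypes were high and RAG1-/- low. Agpat2, an acyltransferase of phospholipid synthesis, had the same 3 marks in EBF-/- and none in RAG1-/- cells at chr2:26424678-26425677, and its signal went from 10.36 and 10.50 to 8.08 and 8.00 (log2 difference -2.40, limma adjusted p = 0.00072). Frat2, a GSK3-binding protein, lay 55 bp from chr19:41899643-41900642, where only H3K9/14ac was missing from the RAG1-/- lists, and its signal was 13.82 and 13.80 in EBF-/- and 11.54 and 11.41 in RAG1-/- samples (log2 difference -2.33, limma adjusted p = 0.000433). Tacc2, a centrosomal coiled-coil gene, Trim13, a ubiquitin ligase of the endoplasmic reticulum, and Rab4a, an endosomal GTPase, differed by -4.31, -4.56 and -3.94 between the same genotypes, each with EBF-/- above RAG1-/- in all samples. The probes of Tacc2, Trim13 and Rab4a lay 41543, 108 and 28444 bp from their regions. Of the 57 genes nearest to regions acetylated in EBF-/- alone, the 5 higher in RAG1-/- cells were C2cd5, Sh3kbp1, Stac2, Snx7 and Mcf2l. Stac2, Snx7 and Mcf2l passed the intensity filter through RAG1-/- samples alone. The calls of C2cd5, Stac2 and Snx7 ended when single samples were left out: C2cd5 had a limma adjusted p of 0.0944 without EBF-/- replicate 1 and 0.178 without EBF-/- replicate 2, Stac2 missed without any 1 of the EBF-/- and RAG1-/- samples (0.127 to 0.384), and Snx7 missed without EBF-/- replicate 1 (0.104), RAG1-/- replicate 1 (0.114) or RAG1-/- replicate 2 (0.203).

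Among genes nearest to a member, the 10 largest fitted rises included Scd1, Hivep3, Fcrla and Bok. For 8 of the 10, all but Fcrla and Kank1, the signal was not well above background in either EBF-/- sample. Their rise is thus a bound and their order was not measured. These 8 and Kank1 passed the intensity filter through RAG1-/- samples alone. The p-values of the 8 rest on EBF-/- signals near background and are no further support. Scd1, the stearoyl-CoA desaturase of fatty acid synthesis, was at 12.70 and 13.23 in RAG1-/- and at 4.09 and 4.61 in EBF-/- samples. The EBF-/- signals were not well above background, so RAG1-/- cells were at least 151-fold higher (limma adjusted p = 0.00393). E2A-/- samples were at 8.03 and 4.57, the second not well above background. The region, chr19:44490935-44491934, lay 42668 bp from the Scd1 probe and had no active mark. Hivep3, a zinc finger gene, was at 11.57 and 11.28 in RAG1-/- and at 3.33 and 3.30 in EBF-/- samples, a rise of at least 51.7-fold. Fcrla, an Fc receptor-like gene of B cells, was at 12.04 and 11.38 in RAG1-/- and 6.84 and 6.70 in EBF-/- samples, a log2 difference of 4.97 (limma adjusted p = 0.00471). Its region had H3K4me2, H3K4me3 and H3K9/14ac in RAG1-/- cells and none in EBF-/- cells. Bok, a BCL2 family member, Kcnf1, a potassium channel subunit, Rarres1 and Pcdh9, a protocadherin, also rose. The bounds on their rise were 31.6-fold, 6.33-fold, 26.1-fold and 13.5-fold. Their regions lay 8720, 0, 35575 and 3777 bp from the probes. Each of these regions had H3K4me3 and H3K9/14ac together with H3K27me3 in RAG1-/- cells. The peak lists do not say whether both kinds of mark sat on the same chromosomes or in the same cells. Kcnf1 missed the threshold without RAG1-/- replicate 1 (limma adjusted p = 0.0862), and Pcdh9 without EBF-/- replicate 2 (0.0644) or RAG1-/- replicate 2 (0.0626). Armcx2, Kank1 and 2010007H06Rik were the others of the 10.

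**Figure D4:**
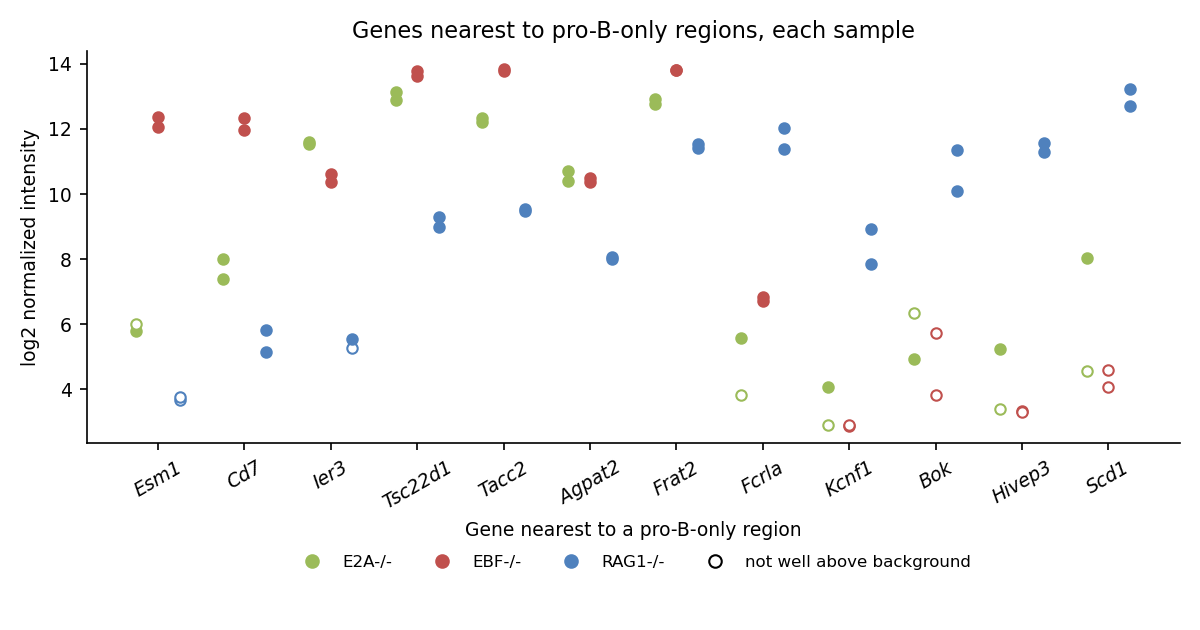
Log2 normalized array signal (vertical axis) of 12 genes nearest to pro-B-only regions in each of the 6 samples, 2 a genotype; open circles were not well above background. The first 7 genes are lower in RAG1-/- (blue) than in EBF-/- (red) samples and the last 5 higher. Lack of overlap between those genotypes was a condition for the largest falls and rises, so it is no result. Tsc22d1, Tacc2, Agpat2 and Frat2 were named after their values were seen.

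The regions with the highest H3K27me3 scores gave few large changes. The highest, with a score of 104, was chr11:115674625-115675624 near Llgl2, a cell polarity gene, and it carried H3K4me2 and H3K9/14ac in both genotypes. Llgl2 signal was 9.65 and 9.84 in EBF-/- and 8.17 and 8.28 in RAG1-/- samples (log2 difference -1.53, limma adjusted p = 0.00431). E2A-/- samples, at 7.95 and 8.34, did not lie above RAG1-/- ones (RAG1-/- against E2A-/- 0.08, limma adjusted p = 0.755). Smad5, a transducer of bone morphogenetic protein signals, at a region with a score of 98, differed by -1.90 (limma adjusted p = 0.00236). Gja5 and Gcgr did not pass the test (limma adjusted p = 0.429 and 0.401), and Car11, Galr2 and Efemp2 were below the filter. Cbx8, a PRC1 chromobox protein that binds H3K27me3, lay 216 bp from a region with a score of 92 and no active mark. Its signal was 12.02 and 11.86 in EBF-/- and 10.87 and 10.32 in RAG1-/- samples (log2 difference -1.35, limma adjusted p = 0.00795, and 0.0602 without EBF-/- replicate 1). The remaining 2 of the 10 highest-scoring regions had no gene within 50 kb.

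Of 92 lineage genes on the array 5 (5.43%) were the nearest gene to a member, against 6.03% of all array genes. Of 21 progenitor genes, 22 T lineage genes, 16 natural killer and innate lymphoid genes and 16 myeloid genes, 1, 2, 0 and 2 were the nearest gene to a member: Mecom, Tcf7, Runx3, Cebpa and Id1. Cebpa, the myeloid factor C/EBPα, lay 33390 bp from a region with H3K4me2 in EBF-/- cells alone, with signals of 9.03 and 9.16 in EBF-/-, 10.11 and 10.45 in E2A-/- and 5.48 and 6.62 in RAG1-/- samples (log2 difference from EBF-/- to RAG1-/- -3.06, limma adjusted p = 0.00571). Tcf7, the T cell factor TCF1, lay 28559 bp from a region with H3K4me2 and H3K9/14ac in both genotypes and H3K4me3 in RAG1-/- alone. Its signal was 9.24 and 9.20 in EBF-/- and 6.06 and 6.53 in RAG1-/- samples, a difference of -2.94 (limma adjusted p = 0.00803). E2A-/- samples were lower still, at 3.00 and 3.94, and RAG1-/- cells were above them by 2.82 (limma adjusted p = 0.00869). Tcf7 missed the threshold without EBF-/- replicate 1 or 2 (limma adjusted p = 0.0801 and 0.0600). Runx3, a factor of T and natural killer cells, differed by -1.86 (limma adjusted p = 0.00294), with its region 23710 bp from the probe. Id1, an inhibitor of E proteins, did not pass the test (log2 difference 1.54, limma adjusted p = 0.134, but 0.0267 without EBF-/- replicate 2), and Mecom was below the filter. None of 11 erythroid, megakaryocyte and mast cell genes and none of 8 dendritic cell genes was nearest to a member. By contrast 14 of 18 tested progenitor genes and 11 of 11 tested natural killer and innate lymphoid genes were lower in RAG1-/- than in EBF-/- cells, and none of these was nearest to a member. Of 550 array genes of developmental regulator and channel families 34 (6.18%) were nearest to a member, as were 6.03% of all array genes. None of 38 Hox genes was among them. This was not particular to the members: within 50 kb of a Hox probe lay 0 of the 2130 RAG1-/- and 1 of the 1311 EBF-/- H3K27me3 peaks.

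Of 30 tested genes of the Polycomb machinery, 10 were higher and 8 lower in RAG1-/- than in EBF-/- cells, with a median log2 difference of 0.05. Over all genes 21% were higher and 22.9% lower, with a median of 0.04. In PRC2, which writes H3K27me3, 5 of 11 genes were higher and none lower in RAG1-/- than in EBF-/- cells: the catalytic subunit Ezh2, Eed, Suz12, Rbbp7 and the accessory protein Phf19. Ezh2 signal was 14.49 and 14.17 in RAG1-/-, 12.90 and 12.72 in EBF-/- and 12.69 and 12.70 in E2A-/- samples, a log2 difference of 1.52 from EBF-/- to RAG1-/- (SE 0.14, limma adjusted p = 0.00232). Phf19 was at 11.42 and 10.91 in RAG1-/- and 8.35 and 8.42 in EBF-/- samples, a difference of 2.79 (limma adjusted p = 0.00106). PRC1 went both ways, with 5 higher and 7 lower of 17. Its 2 members that lay nearest to a pro-B-only region moved in opposite directions, Cbx7 by 0.97 and Cbx8 by -1.35. Without EBF-/- replicate 1 or 2, Cbx7 (limma adjusted p = 0.0855 and 0.0841) and Rbbp7 (0.186 and 0.111) missed the threshold, Suz12 missed it without EBF-/- replicate 2 (0.0884) and Cbx8 without EBF-/- replicate 1 (0.0602), and Rbbp7 missed it with a replicate block (0.0833). Kdm6b, an H3K27 demethylase, differed by -1.60 (limma adjusted p = 0.00245), and Kdm6a did not pass the test.

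The signals of the targeted genes were set beside the genotype labels. Tcf3, which encodes E2A, was at 10.79 and 9.45 in E2A-/- samples, well above background in both. It was at 13.41 and 13.39 in EBF-/- and 14.99 and 14.70 in RAG1-/- samples. Tcf3 was lower in E2A-/- than in RAG1-/- samples by a log2 difference of 4.73 (limma adjusted p = 0.0019). In EBF-/- samples it was lower than in RAG1-/- samples by 1.46 (limma adjusted p = 0.0478). Ebf1 was at 10.86 and 10.90 in EBF-/-, 12.56 and 12.39 in RAG1-/- and 6.94 and 5.38 in E2A-/- samples, so it was higher in RAG1-/- than in EBF-/- samples by 1.62 (limma adjusted p = 0.0494). Rag1 was higher in the samples labelled RAG1-/- (10.54 and 11.11) than in EBF-/- samples (9.79 and 9.58), by 1.15 (limma adjusted p = 0.0285), and than in E2A-/- samples by 5.85 (limma adjusted p = 0.0006). Rag1 signal thus did not check the RAG1-/- label. The labels do not name the deleted parts of these genes, and a probe outside the deleted part checks nothing. Replicates of a genotype correlated at 0.977 or more over genes.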

How the data were processed

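Chromatin peaks and RNA of mouse pre-pro-B and pro-B cells were taken as deposited. Peak lists were made by the authors with HOMER on mm8, per the submitters' processing notes, 1 per library, with the deposited score unexplained; the aligner and read depths are not given in the sources used here. Array intensity values were background-subtracted and dye-normalized within arrays by the authors' scanner software (Agilent Feature Extraction 9.5.3.1), as stated per the file headers. Overlap meant at least 1 bp. The log2 deposited intensities of the 6 channels on 4 arrays were quantile-normalized. Probes well above background in both samples of a genotype were kept (22133 of 41099), the brightest per gene, giving 12584 genes. A gene could pass through only the genotype where it was high, and such genes are in the counts of calls. limma 3.58.1 in R 4.3.3 fitted genotype and dye, with array as a random block and trended variances, and p-values were Benjamini-Hochberg adjusted over all genes (2 residual and 2.52 prior degrees of freedom); only 6 samples limit the precision. In data simulated for RAG1-/- against EBF-/-, the fit recovered 59.7% of genes with a log2 change of 1, 82.1% with 2 and 93.9% with 4. It made 14 false calls. The simulation changed 67, 67 and 66 genes at these sizes, without dye or array effects. In the data 43.9% of genes were called, so these rates may not carry over. The members and lists were chosen with earlier results of these data known. Named genes were the 10 largest falls and 10 largest rises in RAG1-/- against EBF-/- cells that passed the test, genes of the 10 highest-scoring regions, listed lineage genes nearest to a member, and genes at regions with E2A; others are said to be chosen later. Falls and rises were ranked only where both RAG1-/- samples lay beyond both EBF-/- samples. Probes spanning over 10 kb were not placed. That limit, the printed promoters and the comparison with all peaks of a mark were chosen after the data were seen.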

Additional observations from a re-analysis of the deposited data

How the results depend on the processing

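The member count was 890 with only RAG1-/- peaks at or above the median score, against 1830; counting as shared at 1 kb or 10 kb, asking for more cover, or keeping mock overlaps changed it by under 1.5 times. Shares of members with EBF-/- marks followed the overlap rule. With a peak within 1 kb they were 6.07% (H3K4me1), 40.9% (H3K4me2), 11.7% (H3K4me3), 21.1% (H3K9/14ac) and 1.58% (E2A). With 50% of the region covered they were 3.44%, 25.1%, 3.17% and 9.18% for the 4 marks. In the upper part of members by score they were 7.79%, 48.2%, 8.87% and 20.1%, and with only the upper part of the mark's peaks 1.42%, 19%, 1.2%, 2.57% and, for E2A, 0.164%. Without the filter on dim probes, which adds genes with little signal to the total, the share of nearest genes higher and lower was 7.1% and 14.4% in RAG1-/- against EBF-/- (all genes 10.1% and 11.3%), 7.81% and 14.3% in RAG1-/- against E2A-/- (11.2% and 11.4%), and 4.63% and 3.83% in EBF-/- against E2A-/- (5.03% and 4.2%). The higher share was then 3.77% at regions with EBF-/- H3K4me3, 9.33% with EBF-/- H3K9/14ac and 5% with H3K9/14ac in EBF-/- alone. Leaving out each sample in turn gave 6.24% to 16.7% higher and 15.8% to 31.6% lower in RAG1-/- against EBF-/- (all genes 8.36% to 21.6% and 9.82% to 25.5%), 11.2% to 17.4% and 18.6% to 33.7% in RAG1-/- against E2A-/- (13.4% to 23.9% and 13.1% to 26.4%), and 2.18% to 21.8% and 1.45% to 20.9% in EBF-/- against E2A-/- (1.72% to 21.5% and 1.75% to 19.5%). At regions with EBF-/- H3K4me3 these ranges were 1.18% to 9.41% and 31.8% to 51.8%, with EBF-/- H3K9/14ac 6.79% to 14.2% and 25.3% to 46.3%, and with H3K9/14ac in EBF-/- alone 3.51% to 10.5% and 36.8% to 57.9%. Samples of the same number did not deviate together (correlations 0.17, -0.40 and 0.01 between genotypes). Sample number is mixed with dye and array here, so these values cannot settle whether the numbers pair the samples. With a replicate block in place of dye the shares were 17.3% higher and 28.6% lower in RAG1-/- against EBF-/-. No share moved by over 1.5 times with it, for all members or for the sets with EBF-/- H3K4me3, EBF-/- H3K9/14ac or H3K9/14ac in EBF-/- alone. The other splits were not run this way. The alternatives were run for 50 named genes, and no called one changed direction. Tcf3, Ebf1, Rag1, Sp3os and Aasdhppt were not among them, though the Tcf3 and Ebf1 calls lay close to the threshold. Of the called ones, 2 (Snx7 and Stac2) missed the threshold with 75th percentile scaling and 1 (C2cd5) without the dim-probe filter. Id1 passed it with the mean over probes (log2 difference 1.58, limma adjusted p = 0.0195). The Polycomb counts, 10 higher and 8 lower in all, were the same with 75th percentile scaling, which shifted the median of all genes by 0.02.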
